A study of Homo sapiens with 2 samples.

Results

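A set of 10 genes of iron storage, iron transport and heme breakdown was followed in Huh7 cells, an established human line derived from a well differentiated hepatocellular carcinoma: FTL, FTH1, TF, TFRC, TFR2, SLC11A2, SLC40A1, HAMP, HMOX1 and IREB2. They were chosen by gene symbol, and all 10 were found among the 25343 gene entries measured. The cells had been seeded at 500000 per well and then kept for 6 days in high glucose medium, which held 4.5 g/L, or in low glucose medium, which held 0.45 g/L. Live cells were replated at high confluency. Both cultures grew in DMEM with 10% serum, and no drug or genetic change is named for either. Each medium is represented by 1 library, so no difference below has a replicate check, an error or a test.

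The values are TPM, a length-corrected share of all transcripts that sums to 1000000 in each library. Levels of different genes can therefore be compared within a library. Differences are given as log2(TPM + 1) in low glucose minus that in high glucose, and a gene was called at least 2-fold higher or lower when that value reached 1 or -1. On this scale 13745 genes with a mean of at least 1 TPM were compared, and all 10 iron and heme genes were among them. Below, pairs of TPM give high glucose first and low glucose second, and a number in parentheses after them is their difference. The number of reads is not given, so the depth is unknown. In these bulk cultures a change in the mix of cells and a change in RNA per cell cannot be told apart.

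Hepatocytes are the main iron store of the body. Iron bound to transferrin enters cells through transferrin receptors, is carried out of endosomes by the transporter encoded by SLC11A2, and is either used, stored in ferritin or exported by ferroportin. Cells adjust this traffic after transcription: the iron regulatory proteins bind a stem-loop in mRNA, the iron-responsive element, when iron is scarce. Bound near the 5′ end, they block translation of ferritin and ferroportin mRNA. Bound in the 3′ untranslated region, they protect the TFRC mRNA from decay. A change in mRNA level can therefore show the second arm of this control and not the first.

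The stem-loops are shown first because they separate the members into these arms. GENCODE release 29 transcripts (GRCh38, whereas the expression files use hg19) were searched for a bulged C, 5 stem bases, the loop CAGTGN with N not G, and 5 bases that pair with the stem, G with T pairs allowed. Of 19669 protein-coding genes, 214 (1.09%) held such a match in any protein-coding transcript. In the windows below, of 29 bases each, capitals mark the 6 loop bases and T stands for U.
FTL, 5′ untranslated region, chr19:48965335-48965363, plus strand: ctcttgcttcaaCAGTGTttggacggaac
FTH1, 5′ untranslated region, chr11:61967574-61967602, minus strand: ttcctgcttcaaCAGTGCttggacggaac
SLC40A1, 5′ untranslated region, chr2:189580661-189580689, minus strand: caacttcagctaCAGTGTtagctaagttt
TFRC, 3′ untranslated region, match 1, chr3:196050979-196051007, minus strand: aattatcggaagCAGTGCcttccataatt
TFRC, match 2, chr3:196050575-196050603: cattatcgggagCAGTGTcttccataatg
TFRC, match 3, chr3:196050510-196050538: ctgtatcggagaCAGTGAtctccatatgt
TFRC, match 4, chr3:196050463-196050491: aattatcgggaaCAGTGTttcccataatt

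Each of the 4 TFRC stems had 3 G with C pairs, the SLC40A1 stem had 2, and the FTL and FTH1 stems had 1. The SLC40A1 gene held its match in 1 of its 5 protein-coding transcripts, FTL in 1 of 1 and FTH1 in 7 of 8. The TF gene held 1 match in 1 of its 3 protein-coding transcripts, 14061 bases after the coding part of an unusually long transcript, and it is not shown. No match to these letters was found in the protein-coding transcripts of SLC11A2, TFR2, HMOX1, HAMP or IREB2, which says only that this strict pattern is absent there. A looser pattern was not searched.

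In low glucose, HMOX1 was the only member past the 2-fold rule, at 2.32 times its high glucose TPM. The carrier TF, both transferrin receptors, SLC11A2 and SLC40A1 were higher by 1.23 to 1.64 times, and FTL was lower at 0.779 times. FTH1, HAMP and IREB2 lay within 0.917 and 1.03 times. So 1 of 10 members was at least 2-fold higher, where 3.65% of all genes compared were, and 0 were at least 2-fold lower, where 1.10% of all genes were. With a 1.5-fold rule, 3 members were higher (HMOX1, TFR2 and SLC11A2), against 13.0% of all genes, and 0 lower, against 6.07%. The median difference of the 10 was 0.32, and that of all genes was 0.05. Above 0 lay 7 members and below it 3, while 54.6% of all genes lay above 0.

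**Figure D1:**
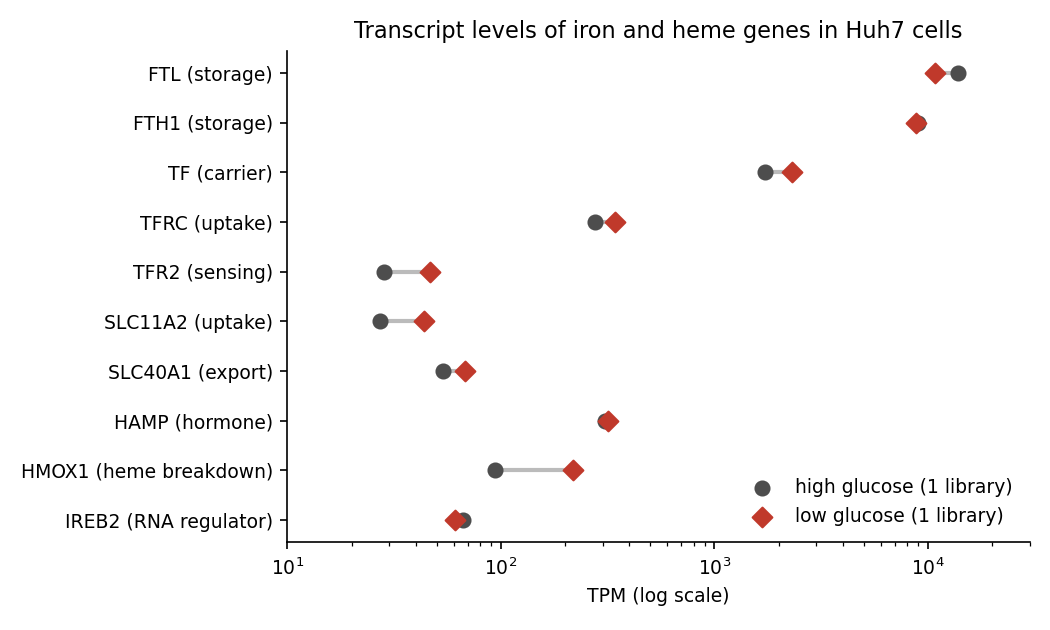
TPM of each member in the high glucose library (grey circles) and the low glucose library (red diamonds), on a log axis, with each gene's role in parentheses; every point is 1 library. The largest gap is that of HMOX1, from 94.1 to 218 TPM, and the points of FTH1 and HAMP nearly coincide.

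The storage genes were the most abundant members. FTL, the ferritin light chain, which helps iron to form a mineral core (chr19:49468566-49470136 in hg19), stood at 13904 (high) and 10827 TPM (low glucose), a difference of -0.36. It ranked 2nd of all entries in high glucose and 3rd in low glucose. FTH1, the ferritin heavy chain, which oxidises iron as it enters the shell (chr11:61731757-61735132), stood at 8986 and 8835 TPM, a difference of -0.02 that turned to 0.00 when the 50 most abundant genes were left out of the total. The ratio of the chains differed as well, with 1.55 FTL transcripts per FTH1 transcript in high glucose and 1.23 in low glucose. Together they took 2.29% of all TPM in high glucose and 1.97% in low glucose.

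Ferritin mRNA has many near-identical processed copies in the genome, and reads that fit several entries were divided between them by the authors' estimator. Among the entries, FTH1P3 stood at 1.13 and 1.57 TPM, FTLP10 at 0 and 0.07 TPM, and FTH1P18, FTHL17 and the mitochondrial ferritin gene FTMT were listed at 0 in both. Copies outside these entries were not analysed here. A stretch of 179 bases at the 3′ end of the FTH1 interval is shared with the neighbouring gene BEST1, listed at 0.76 (high) and 9.71 TPM (low glucose), and whether the libraries keep strand is not given in the sources used here.

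Of the other genes that handle ferritin and iron inside the cell, 0 of 9 compared passed the 2-fold rule. By that rule 3.65% of all genes compared were higher and 1.10% lower, so 0 in so short a list is near that share. Below 0 lay 7, where 45.3% of all genes did, and the median was -0.28. The iron chaperone PCBP1 stood at 560.5 and 373 TPM (-0.59), while its relative PCBP2 stood at 484 and 476 TPM (-0.02, and 0.01 without the 50 most abundant genes in the total). NCOA4, the receptor that takes ferritin to lysosomes for degradation, stood at 214 and 147 TPM (-0.54). Its interval overlaps that of TIMM23B (12.7 and 22.7 TPM).

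The 4 members of transferrin iron uptake and sensing (TF, TFRC, TFR2 and SLC11A2) were higher in low glucose, none by 2-fold. TF, which encodes the plasma iron carrier transferrin (chr3:133464977-133497850), stood at 1727 (high) and 2315 TPM (low glucose), a difference of 0.42. TFRC, the main transferrin receptor (chr3:195776155-195809032), stood at 276 and 341 TPM (0.30). Its 4 stem-loops above lie in the part of the mRNA where binding is known to slow decay. There were 3.07 TFRC transcripts per 100 FTH1 transcripts in high glucose and 3.85 in low glucose.

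TFR2, a second receptor that hepatocytes use mainly to sense transferrin iron (chr7:100218039-100239173), stood at 28.5 (high) and 46.7 TPM (low glucose), a difference of 0.69. SLC11A2, the DMT1 transporter that moves ferrous iron out of endosomes (chr12:51373566-51422058), stood at 27.3 and 43.6 TPM (0.66). These 2 genes had the lowest levels of the 10 in both libraries, and their differences exceeded those of 90.8% and 89.6% of all genes compared. The SLC11A2 value covers all its transcripts, so forms with and without an iron-responsive element were not separated. TFRC remained the more abundant receptor, at 9.69 transcripts per TFR2 transcript in high and 7.30 in low glucose.

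Beyond the members, 0 of 12 other genes of iron uptake, reduction and export passed the rule. Of all genes compared, 3.65% were higher by it and 1.10% lower. Above 0 lay 8 of the 12, where 54.6% of all genes did, and the median was 0.34. SLC39A14, a hepatocyte importer of iron not bound to transferrin, stood at 246 and 359 TPM (0.54). STEAP1, of a family of metal reductases, stood at 92.8 and 69.6 TPM (-0.41). CP, the secreted ferroxidase ceruloplasmin, stood at 53.6 and 69.0 TPM (0.36), and its interval overlaps that of HPS3 (27.6 and 19.0 TPM).

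SLC40A1, which encodes ferroportin, the iron exporter (chr2:190425316-190445537), stood at 53.7 (high) and 68.1 TPM (low glucose), a difference of 0.34. HAMP, which encodes hepcidin, the liver hormone that binds ferroportin and has it degraded (chr19:35773410-35776045), stood at 307 and 317 TPM. Its difference of 0.04 lay at the middle of all genes, above 49.4% of them, and turned negative (-0.04) with median-of-ratios scaling.

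HAMP is driven by bone morphogenetic protein (BMP) signals through SMAD factors and by inflammation through STAT3. Of 15 genes of this control that were compared, 0 passed the rule, where 3.65% of all genes were higher and 1.10% lower. On the 2 sides of 0 lay 6 above and 9 below, and the median was -0.06. BMP2, a ligand of the pathway, stood at 163 and 300.3 TPM (0.88). ID1, a target of the same pathway that is widely read as its output, stood at 1511 and 962 TPM (-0.65). The ligand and this target lay on opposite sides of 0. SMAD7, of the same list and picked after its values were seen, lay on the side of the ligand, at 53.55 and 69.91 TPM (0.38). STAT3 stood at 69.9 and 64.0 TPM (-0.12).

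**Figure D2:**
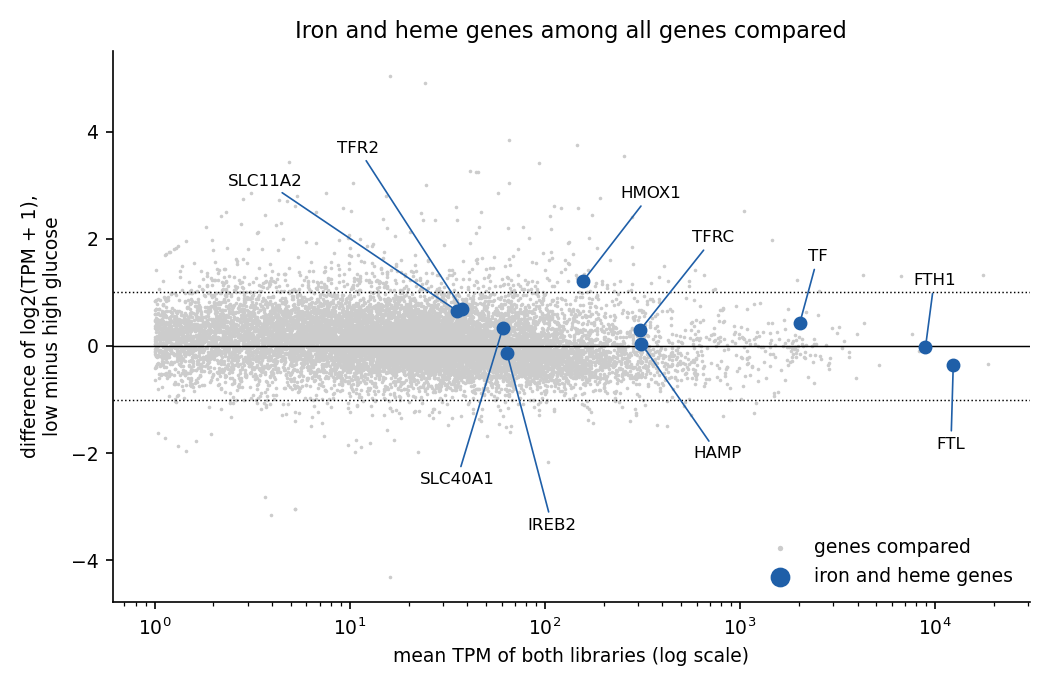
Low minus high glucose difference of log2(TPM + 1) against the mean TPM of both libraries (log axis) for the 13745 genes compared (grey) and the 10 members (blue); dotted lines mark the 2-fold rule. HMOX1 is the only member outside the dotted lines, at 1.20, and FTL and FTH1 lie at the far right among the most abundant genes.

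Level bears on how these differences compare with the rest of the library, as the plot of difference against level shows. Genes of 1 to 10 TPM had a median difference of 0.18, those of 10 to 100 TPM 0.02, those of 100 to 1000 TPM -0.15 and the 139 genes of at least 1000 TPM -0.02. TFR2 and SLC11A2 lay above the 75th percentile of their band (0.30), and SLC40A1, at 0.34, did so narrowly. In the band of 100 to 1000 TPM the 75th percentile was 0.18, below TFRC and HMOX1. FTL lay below the 25th percentile of its band (-0.24) and TF above the 75th (0.17).

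HMOX1, the inducible heme oxygenase, which opens heme and frees its iron (chr22:35777060-35790207), stood at 94.1 (high) and 218 TPM (low glucose). Its difference of 1.20 exceeded that of 97.8% of all genes compared, and it ranked 1913th of all entries in high and 694th in low glucose. The constitutive heme oxygenase gene HMOX2, named here after its values were seen, went the other way, at 20.0 and 11.1 TPM (-0.79). HMOX1 transcripts per HMOX2 transcript were 4.70 in high and 19.6 in low glucose. The sum of both was 114 and 229 TPM. By level in both libraries the 3 nearest genes to HMOX1 were CLGN (89.2 and 228 TPM), TES (98.9 and 198 TPM) and MTRNR2L3 (90.5 and 242 TPM), at distances of 0.10 to 0.16 in log2(TPM + 1) over 2 libraries.

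HMOX1 transcription is known to be opened by NRF2 (encoded by NFE2L2) paired with a small MAF protein and held back by BACH1. Of 10 genes on a list of HMOX1 regulators, 4 were at least 2-fold higher and 0 lower, against 3.65% and 1.10% of all genes compared. Above 0 lay 8, where 54.6% of all genes did, and the median was 0.59. All 3 small MAF genes met the rule: MAFF stood at 22.3 and 62.0 TPM (1.44), MAFG at 21.4 and 67.8 TPM (1.62) and MAFK at 17.2 and 47.5 TPM (1.41). Their summed level was 60.9 and 177 TPM. NFE2L1, a relative of NRF2, was the other, at 117 and 273 TPM (1.21). The MAFK interval shares 809 bases with that of TMEM184A (8.60 and 19.56 TPM).

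The NRF2 gene itself was lower, with NFE2L2 at 347 and 229 TPM (-0.60). The repressor gene BACH1, named after its values were seen, was higher, at 20.5 and 30.4 TPM (0.54). NRF2 is controlled mainly through the stability of the protein, which these data do not measure. The stress response factor gene ATF4 had 658 and 904 TPM (0.46). These genes were listed with earlier results of the same libraries in view, so their direction is no independent evidence on HMOX1.

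Heme also has to be moved and scavenged. Of 12 genes of heme breakdown, transport and scavenging, 1 was at least 2-fold higher and 0 lower, against 3.65% and 1.10% of all genes compared. Above 0 lay 7, and the differences ran from -0.79 (HMOX2) to 1.17 with a median of 0.36. The 1 higher was SLC48A1, a heme transporter that moves heme from lysosomes into the cytosol, at 10.2 and 24.3 TPM (1.17), which fell short of the rule with a pseudocount of 5 (0.95). LRP1, a receptor for heme bound to hemopexin, stood at 174 and 309 TPM (0.82). POR, the reductase that passes electrons to heme oxygenase, stood at 160.3 and 247 TPM (0.62), and PGRMC1, a heme-binding membrane protein, at 157 and 127 TPM (-0.31).

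Heme synthesis split evenly around 0. Of 9 genes compared, 1 was at least 2-fold higher and 0 lower, against 3.65% and 1.10% of all genes compared. Above 0 lay 5 and below it 4, and the median was 0.03. The 1 higher was TSPO, at 8.53 and 22.4 TPM (1.29), which encodes a protein of the outer mitochondrial membrane that binds porphyrins and is not an enzyme of the pathway. ALAS1, the rate-limiting enzyme in liver, stood at 94.1 and 101 TPM (0.10), while UROD stood at 75.4 and 55.5 TPM (-0.43) and UROS at 50.6 and 42.5 TPM (-0.25); both encode later enzymes. The erythroid form ALAS2 was listed at 0 in both libraries.

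Assembly of iron-sulfur clusters is the other main use of cellular iron. None of the 25 genes of this list passed the rule, where 3.65% of all genes compared were higher and 1.10% lower. Of the 25, 10 lay above 0 and 15 below, and the median was -0.14. HSPA9, the mitochondrial chaperone of the pathway, stood at 308 and 356 TPM (0.21). The scaffold gene ISCU stood at 138 and 131 TPM (-0.08). FAM96B, of the cytosolic targeting complex, stood at 125 and 131 TPM, and its difference of 0.07 turned to -0.02 with median-of-ratios scaling.

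**Figure D3:**
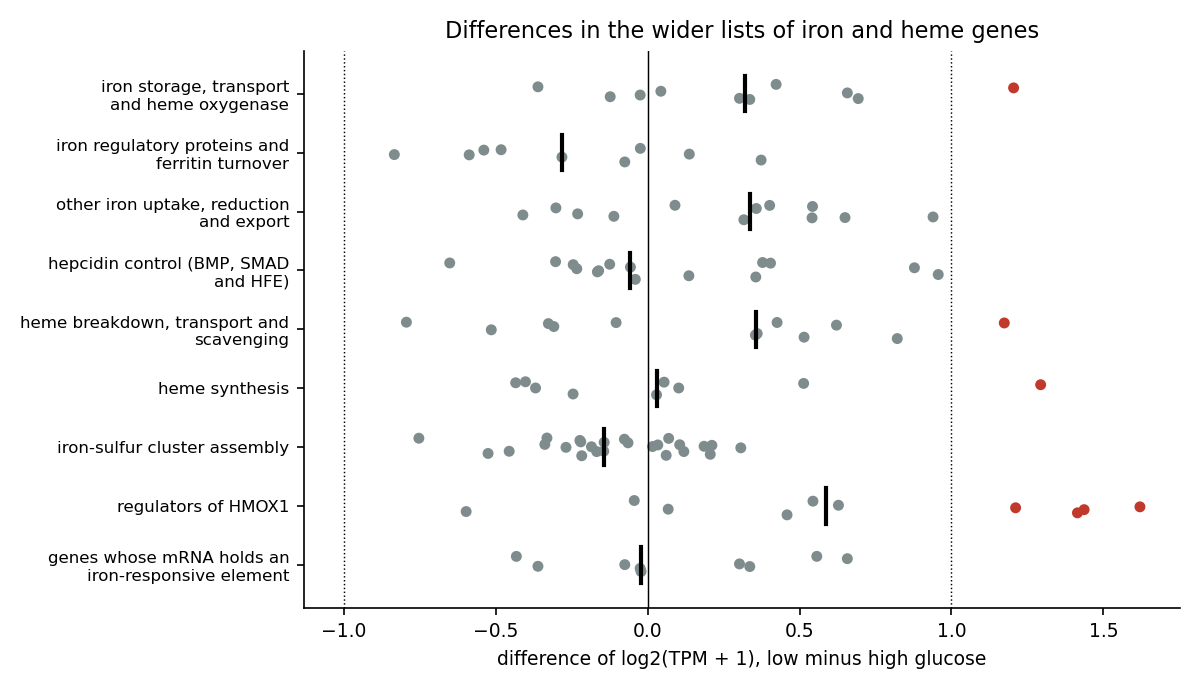
Low minus high glucose difference of log2(TPM + 1) for each compared gene (points) of the 10 members and 8 wider lists, with each list's median as a black bar, the 2-fold rule as dotted lines and genes past it in red. The red points are HMOX1, SLC48A1, TSPO and, among the regulators of HMOX1, MAFF, MAFG, MAFK and NFE2L1.

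The RNA-binding regulator completes the members. IREB2, iron regulatory protein 2, which is degraded when iron is plentiful (chr15:78730518-78793798), stood at 66.5 (high) and 61.0 TPM (low glucose), a difference of -0.12. Its partner ACO1, iron regulatory protein 1, which is a cytosolic aconitase when it carries an iron-sulfur cluster, was named after its values were seen and stood at 54.5 and 30.1 TPM (-0.83). IREB2 transcripts per ACO1 transcript were 1.22 in high and 2.02 in low glucose.

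The genes known for an iron-responsive element did not move as a group. Of the 9 compared, 0 passed the rule, where 3.65% of all genes were higher and 1.10% lower. Among the 9, 4 lay above 0 and 5 below, and the median was -0.02. Members with the stem-loop in the 5′ untranslated region were spread, with FTL at -0.36, FTH1 at -0.02 and SLC40A1 at 0.34. The SLC40A1 value covers all its transcripts, so forms with and without the match were not separated. Of the members with a match in the 3′ untranslated region, TFRC, with 4, stood at 0.30. TF, with the 1 distant match described above, stood at 0.42. Whether the TF value counts the long transcript that holds the match was not tested. Protein levels and iron content were not measured, so translation through the 5′ stem-loops is outside these data.

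Promoter sequence was read from the RefSeq table (GRCh38.p14), from 250 bases before to 50 after each start, which matched 7 of the 10 members with 12 entries; FTH1, HMOX1 and TFR2 had none. On both strands the antioxidant response element core TGACNNNGC was found in 0 of the 12 entries and in 13.3% of all promoters. Sequence outside these windows was not searched, so 0 matches do not show that a gene lacks the element. The hypoxia response element core ACGTG was found in the entries of TFRC (88 bases before the start), FTL (11 bases before) and 1 entry of TF (28 bases after), and in 21.4% of all promoters. That TF entry lies at chr3:133661748-133662047, and the other, at chr3:133746143-133746442, held none. Which of these starts the TF value reflects was not tested. The E-box CACGTG, which contains ACGTG, was found in 0 entries and in 7.3% of all promoters.

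By level, the order in high glucose was FTL, FTH1, TF, HAMP, TFRC, HMOX1, IREB2, SLC40A1, TFR2 and SLC11A2. In low glucose TFRC stood above HAMP and SLC40A1 above IREB2, and the other places were the same. With 1 library per medium, whether neighbours in this order differ beyond their spread cannot be told. TFRC, the member of middle level, had close company: PTGR1, BCAM and BRI3 lay within 0.04 in log2(TPM + 1) over 2 libraries. FTL had none, its nearest being FTH1 at a distance of 0.69, then ALB and AFP.

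The label of the cells was checked against marker genes. All 8 hepatocyte markers were compared, with a summed level of 41852 and 36208 TPM. The 2-fold rule was passed by 0 of them, where 3.65% of all genes compared were higher and 1.10% lower. Of these markers 6 lay below 0 and 2 above, with a median of -0.33, from TTR (1351 and 682 TPM, -0.99) to AMBP (3673 and 4960.0 TPM, 0.43). Of 6 erythroid markers, 5 were listed at 0 in both libraries and EPB42 stood at 0 and 0.04 TPM. Of 6 macrophage and leukocyte markers, CD163, the macrophage scavenger of hemoglobin, was listed at 0 in both, and CSF1R at 0 and 0.03 TPM. PTPRC stood at 0.83 and 0.50 TPM and CD14 at 3.04 and 2.26 TPM, while CD68, a lysosomal protein gene, stood at 20.4 and 39.3 TPM (0.91). The sum of that list, 575 and 240 TPM, came mostly from LYZ (550.3 and 198 TPM, -1.47). LYZ was the 1 gene of that list past the 2-fold rule, on the lower side, where 1.10% of all genes compared were. Of 6 endothelial and fibroblast markers the sum was 22.0 and 30.8 TPM, and COL1A1 alone passed the rule (1.06 and 4.03 TPM). The part of these lists in the values of SLC40A1 and HMOX1, which macrophages also express, was not tested.

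**Figure D4:**
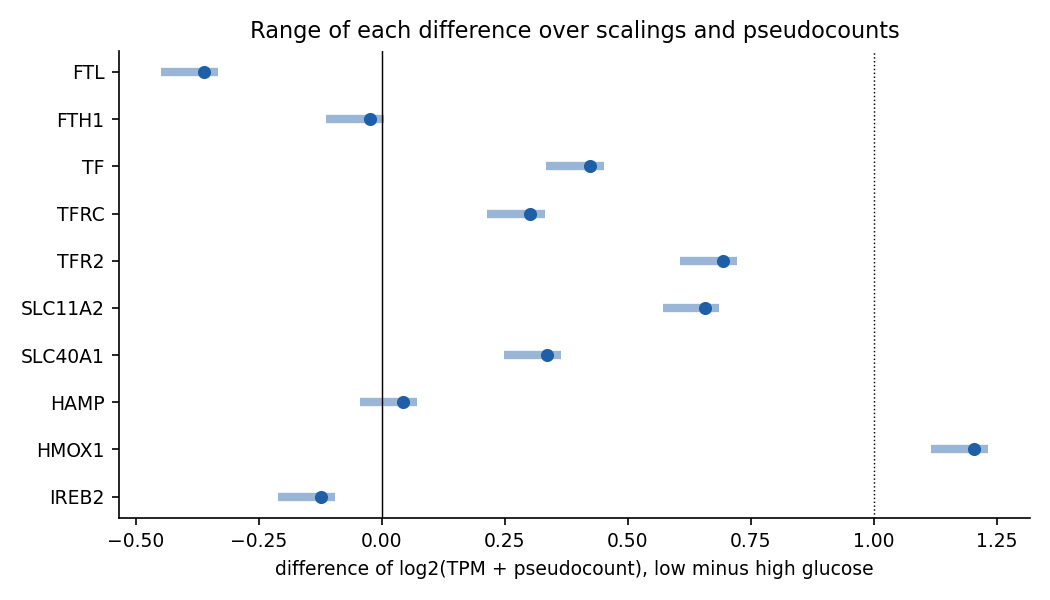
Difference of each member as reported (point) and its range (bar) over 3 other scalings and pseudocounts of 0.1 and 5, with the 2-fold rule as a dotted line; for the ferritin genes the sum with their pseudogenes is included. HMOX1 stayed between 1.12 and 1.23, and the bars of FTH1 and HAMP reach across 0.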

How the data were processed

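RNA from 2 Huh7 cultures was compared, 1 library per medium, grouped by the treatment label. The authors deposited TPM per gene with 2 decimals, named so per the file headers. Tools listed in the submitters' processing notes are cutadapt, and RSEM 1.2.21, with the build hg19. An aligner or annotation is not given in the sources used here. Since TPM has a fixed total, a rise of abundant genes lowers the values of the rest. Reads are not given, so no interval could be had.

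Genes with a mean of at least 1 TPM were compared on log2(TPM + 1), a scale that understates differences of low genes. No p-value is possible. Named were the members and, in each of 8 wider lists, genes past the 2-fold rule and the 3 most abundant; marker genes and genes named after their values were seen are extra. In the wider lists, 1 gene is counted but not reported here. The members and lists were chosen with earlier results of these data known. Alternatives were 3 scalings, 2 pseudocounts, 2 filters, 2 folds and ferritin summed with its pseudogenes. The fold rule and scalings were run on simulated data, with planted changes larger than the rule and little noise. That run checks only that the rule works as coded, and not how reliable the calls here are. Calculations used Python 3.11.15, pandas 2.3.3 and numpy 2.4.6. Coordinates are hg19 from the files, except those of sequences (GRCh38).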

Additional observations from a re-analysis of the deposited data

How the results depend on the processing

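HMOX1 was the only member called at least 2-fold higher, and 0 members were lower, under pseudocounts of 0.1 and 5, scaling by the median of ratios, by the upper quartile or by a total that leaves out the 50 most abundant genes, a minimum of 10 TPM and no minimum. A 1.5-fold rule called 3 members and 1786 and 835 genes in all higher and lower, and a 3-fold rule 0 members and 119 and 22 genes; these follow from the rule itself. With a pseudocount of 5, 234 and 79 genes passed the 2-fold rule, and with a minimum of 10 TPM 293 genes were higher. The scalings moved the median of all genes to between -0.03 and 0.08. FTH1 and HAMP changed sign among them (FTH1 from -0.11 to 0.00, HAMP from -0.04 to 0.07), and the other 8 members did not. Summing FTH1 and FTL with their pseudogenes left both at -0.02 and -0.36. No paired analysis was possible because each medium has 1 library. Without read numbers, the precision of TSPO, SLC48A1 and other low genes is unknown.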

Other observations

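From the wider lists 3 further genes, picked after their values were seen, lay near the 2-fold rule or at the edge of their list. ACVR1, a BMP type I receptor that acts upstream of hepcidin, stood at 27.1 (high) and 53.5 TPM (low glucose) (0.96). LCN2, a secreted protein that binds iron carried by bacterial siderophores, stood at 8.36 and 17.0 TPM (0.94). Its plain TPM ratio was 2.03, so it missed the 2-fold rule only through the pseudocount of 1. GLRX5, a mitochondrial glutaredoxin needed for iron-sulfur clusters, had the lowest difference of its list, at 129 and 76.4 TPM (-0.75). These are values of 2 libraries with no replicate check.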
